A study of Mus musculus with 12 samples.

Results

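The chemokines and their receptors were examined as a gene group for H3K27me3, a repressive histone mark in which PRC2, one of the Polycomb complexes, adds 3 methyl groups to lysine 27 of H3. Members were all protein-coding autosomal genes of the GENCODE annotation of GRCm38 whose symbol is Ccl, Cxcl, Ccr or Cxcr followed by a number and, in some, a letter. The rule gave 50 of 20807 protein-coding autosomal genes. They comprised 35 ligand genes, 23 of the CC and 12 of the CXC class, and 15 receptor genes, 10 of the CC and 5 of the CXC class. Each was scored by whether a site of H3K27me3 came within 1 kb of the transcription start site (TSS) of any of its transcripts, and by the share of its bases from annotated start to end that lay inside a site, its gene-body cover.

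The sites came from ChIP-seq of immortalized mouse embryo fibroblasts (iMEF cells). In these cells an exon of the floxed endogenous Ash2l alleles had been excised by an inducible Cre recombinase, and ASH2L, which the KMT2 methyltransferases need for full activity on H3K4, was supplied by a lentiviral construct as human ASH2L with an N-terminal FKBP12F36V tag, which dTAG directs to degradation. The labels call the untreated libraries WT, which was read here, after the methods of the study, as untreated cells of the same tagged line. On that reading all groups carried this deletion and this construct, and the cells were 1 clone. There were 8 H3K27me3 libraries, 2 from untreated cells and 2 for each dTAG treatment of 16 h, 24 h or 48 h, and 4 input libraries, 2 from untreated cells and 2 from cells after 48 h of dTAG. The deposited list joins the sites of all samples, 101389 in number, each with a position only. It holds no value for a library, so it allows no comparison of a chemokine gene between untreated and treated cells and gives no replicate error. A separate list of sites that the authors called changed at each time was not used here. The depth obtained per library is unknown here, and the study states only a planned minimum. A gene without a site is a gene at which no site was listed, which does not show that the mark was absent.

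Chemokines are small secreted proteins that attract cells along a gradient. They bind G protein-coupled receptors that signal through Gi proteins, and most receptors are carried by leukocytes. Fibroblasts secrete several ligands, among them CXCL12, and can be induced to transcribe inflammatory ligands through NF-kB and interferon signalling. H3K27me3 is commonly found at promoters of genes that are silent in a lineage, often at promoters with a CpG island, a stretch of DNA rich in unmethylated CpG dinucleotides. Many chemokine genes arose by local duplication and lie side by side.

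Promoters inside a site and promoters without one are shown first, so that their CpG content can be seen. The sequences are those of RefSeq on GRCm38.p6, from 250 bases before to 50 bases after a gene's start, written 5′ to 3′ on the gene's strand, with each CpG in capitals. Those of Cxcr4 (chr1:128592250-128592549, minus strand), Cxcl12 (chr6:117168285-117168584, plus strand), Cxcl14 (chr13:56296502-56296801, minus strand), Ccl1 (chr11:82179763-82180062, minus strand) and Cxcr2 (chr1:74153744-74154043, plus strand) lay inside a site over all 300 bases.
Cxcr4: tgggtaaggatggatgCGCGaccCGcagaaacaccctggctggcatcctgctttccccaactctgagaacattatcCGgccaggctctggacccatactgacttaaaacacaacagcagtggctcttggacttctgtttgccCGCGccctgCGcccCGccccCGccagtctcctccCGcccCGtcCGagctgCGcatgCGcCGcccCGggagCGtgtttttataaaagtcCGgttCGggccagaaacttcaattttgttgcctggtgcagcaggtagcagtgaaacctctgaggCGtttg
Cxcl12: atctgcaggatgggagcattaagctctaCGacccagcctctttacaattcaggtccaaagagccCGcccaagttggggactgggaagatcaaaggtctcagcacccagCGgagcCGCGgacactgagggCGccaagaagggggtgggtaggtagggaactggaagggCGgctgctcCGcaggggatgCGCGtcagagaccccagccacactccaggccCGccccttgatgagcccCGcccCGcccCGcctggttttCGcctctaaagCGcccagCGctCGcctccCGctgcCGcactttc
Cxcl14: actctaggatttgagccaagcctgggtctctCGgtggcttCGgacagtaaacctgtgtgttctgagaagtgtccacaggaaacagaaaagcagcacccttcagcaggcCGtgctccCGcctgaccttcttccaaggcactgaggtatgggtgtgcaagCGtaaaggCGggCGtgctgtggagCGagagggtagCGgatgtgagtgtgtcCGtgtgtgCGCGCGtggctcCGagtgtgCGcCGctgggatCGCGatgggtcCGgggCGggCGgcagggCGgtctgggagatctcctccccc
Ccl1: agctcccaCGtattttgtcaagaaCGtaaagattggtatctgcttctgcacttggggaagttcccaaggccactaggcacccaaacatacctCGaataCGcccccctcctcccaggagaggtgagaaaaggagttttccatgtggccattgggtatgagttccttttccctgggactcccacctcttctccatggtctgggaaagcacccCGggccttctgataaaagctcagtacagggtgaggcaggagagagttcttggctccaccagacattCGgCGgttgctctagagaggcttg
Cxcr2: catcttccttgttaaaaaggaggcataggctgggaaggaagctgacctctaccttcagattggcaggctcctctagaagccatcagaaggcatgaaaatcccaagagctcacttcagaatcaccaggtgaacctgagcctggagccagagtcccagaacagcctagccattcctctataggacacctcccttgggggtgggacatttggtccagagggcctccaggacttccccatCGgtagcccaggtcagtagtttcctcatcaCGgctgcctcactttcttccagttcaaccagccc
Those of Cxcl1 (chr5:90890995-90891294, plus strand), Cxcl2 (chr5:90903649-90903948, plus strand) and Cxcl10 (chr5:92348840-92349139, minus strand) held no base of a site.
Cxcl1: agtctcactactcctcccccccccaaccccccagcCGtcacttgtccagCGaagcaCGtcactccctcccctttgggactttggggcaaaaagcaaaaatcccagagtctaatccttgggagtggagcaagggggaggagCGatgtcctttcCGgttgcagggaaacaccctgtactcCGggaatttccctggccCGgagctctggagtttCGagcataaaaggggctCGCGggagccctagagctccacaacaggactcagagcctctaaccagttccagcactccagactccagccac
Cxcl2: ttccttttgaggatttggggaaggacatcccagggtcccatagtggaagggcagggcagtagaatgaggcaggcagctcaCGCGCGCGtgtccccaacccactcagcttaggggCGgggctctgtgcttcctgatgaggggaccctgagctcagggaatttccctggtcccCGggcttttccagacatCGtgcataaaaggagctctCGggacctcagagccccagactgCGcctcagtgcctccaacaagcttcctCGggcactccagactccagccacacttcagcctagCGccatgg
Cxcl10: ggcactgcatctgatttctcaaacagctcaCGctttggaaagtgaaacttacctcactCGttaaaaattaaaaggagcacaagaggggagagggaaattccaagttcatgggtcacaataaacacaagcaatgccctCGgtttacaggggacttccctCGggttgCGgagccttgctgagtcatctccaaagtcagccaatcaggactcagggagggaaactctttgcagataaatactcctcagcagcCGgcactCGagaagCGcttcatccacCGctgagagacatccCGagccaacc
The first 3 marked promoters held 20, 20 and 22 CpGs, whereas Ccl1 held 7 and Cxcr2 held 2. The unmarked promoters of Cxcl1, Cxcl2 and Cxcl10 held 10, 11 and 10 CpGs. These are richer than most, since the 29 member promoters without a site within 1 kb had a median of 4 CpGs. The unmarked promoters of Ccl20 and Cxcl15, whose sequences are not shown, held 3 each. Over all 39 member promoters matched, the richest in CpGs, with 52, was that of an upstream start of Ccl25. The poorest, with 1 CpG each, were those of another start of Ccl25 and of Ccr1, Ccr2 and Ccr3. None of these had a site within 1 kb.

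A site within 1 kb of a TSS was found at 18 of the 50 members (36%), against 26.9% of all protein-coding autosomal genes. The 95% Wilson interval of the members' share, from 24.1 to 49.9%, included the share of all genes. Intervals given here cover counting error only and treat genes as independent, which neighbours are not. Ligands and receptors had different shares. Of the 35 ligand genes 9 had a site (25.7%, interval 14.2 to 42.1%), close to the share of all genes. The 9 members with a near-identical promoter copy elsewhere in the assembly (at least 98% identity over at least 500 bp) were all ligands. Without them 8 of 26 ligands had a site (30.8%, interval 16.5 to 50%). Of the 15 receptor genes 9 had one (60%, interval 35.8 to 80.2%). The intervals of ligands and receptors overlapped, and the difference was not tested.

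By class, CC receptors had the highest share, with a site at 7 of 10 genes (interval 39.7 to 89.2%). There followed 2 of 5 CXC receptors (11.8 to 76.9%), 4 of 12 CXC ligands (13.8 to 60.9%) and 5 of 23 CC ligands (9.66 to 41.9%). The intervals of the classes overlapped, and their order was not tested. The plot of shares sets these beside the share of all genes. With TSSs of principal transcripts only, 17 members kept a site, against 24.4% of all genes.

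**Figure D1:**
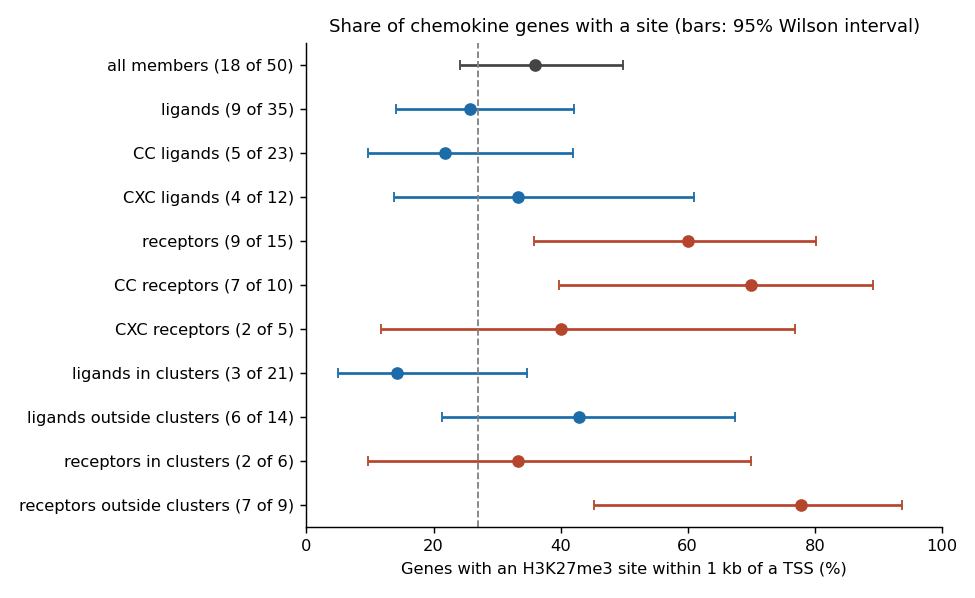
Share of genes with an H3K27me3 site within 1 kb of a TSS (x axis, %) for chemokine genes by class and by position in a cluster (y axis, with counts). Points are shares, bars are 95% Wilson intervals for counting error, and the dashed line is the share of all protein-coding autosomal genes, 26.9%; receptors outside clusters (7 of 9) and CC receptors (7 of 10) lie farthest to the right.

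The receptor with the widest domain was Ccr6, the receptor of CCL20 on lymphocytes and dendritic cells (chr17:8236043-8257141, plus strand). A site of 25014 bp ran from position -12786 relative to its first TSS, where negative positions are upstream, into the gene, a second of 14306 bp took up the rest, and 96.2% of the gene was covered. Cxcr4, the receptor of CXCL12 that retains blood-forming cells in the marrow, lay at chr1:128588199-128592293 (minus strand) entirely inside 1 site of 14294 bp, most of which was upstream of the TSS. These 2 receptors were the only ones with a cover of at least 90%.

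Sites of intermediate width lay over the start of other receptors. Ccr7, which guides T cells and dendritic cells to lymph nodes, had a site of 3395 bp that reached 3069 bp into the gene (cover 28.2%). Ccr10, a receptor of skin-homing T cells, shared a site of 1593 bp with the promoter of its neighbour Cntnap1 and had a cover of 7.81%. At Cxcr2, the neutrophil receptor for CXCL1 and CXCL2, the site measured 1503 bp and lay mostly upstream, and 3.53% of the gene was covered. Its neighbour and relative Cxcr1 had no site, the nearest being 13415 bp from its TSS.

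Ccr8 and Ccr4, both receptors of T cells, had only a short site within 1 kb of a TSS. Ccr8, the receptor of CCL1, had a site of 497 bp that ended 186 bp before the TSS, and a second of 1816 bp gave a cover of 60.9%. Ccr4, the receptor of CCL17 and CCL22, was the member just inside the limit of 1 kb, with a site of 213 bp at 905 bp. Together with sites of 353, 622 and 207 bp elsewhere in the annotated gene it gave a cover of 9.55%. Just outside the limit was Cxcr5, the receptor that brings B cells into follicles, with a site of 200 bp in an intron at 1613 bp from a TSS and a cover of 1.09%.

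At Ccr9 the call rested on 1 of its transcripts. Ccr9, the gut-homing receptor for CCL25, has an annotated transcript (Ccr9-202) that starts far upstream, inside a site of 11373 bp that also spans the promoter of the transporter gene Slc6a20a. The nearest site to the other Ccr9 starts was 25927 bp away, and the transcripts Ccr9-201, Ccr9-203, Ccr9-204, Ccr9-205 and Ccr9-206 had a cover of 0%.

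A further 5 receptors had neither a site near a TSS nor any cover. They were Cxcr1, Cxcr6, Ccr1, Ccr2 and Ccr3, receptors of neutrophils, T cells, monocytes and eosinophils. Their distances to the nearest site were 13415 bp for Cxcr1, 23020 bp for Ccr2, 65233 bp for Cxcr6, 106674 bp for Ccr3 and 159954 bp for Ccr1. All but Cxcr1 lie in 1 cluster on chromosome 9, described with the clusters.

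**Figure D2:**
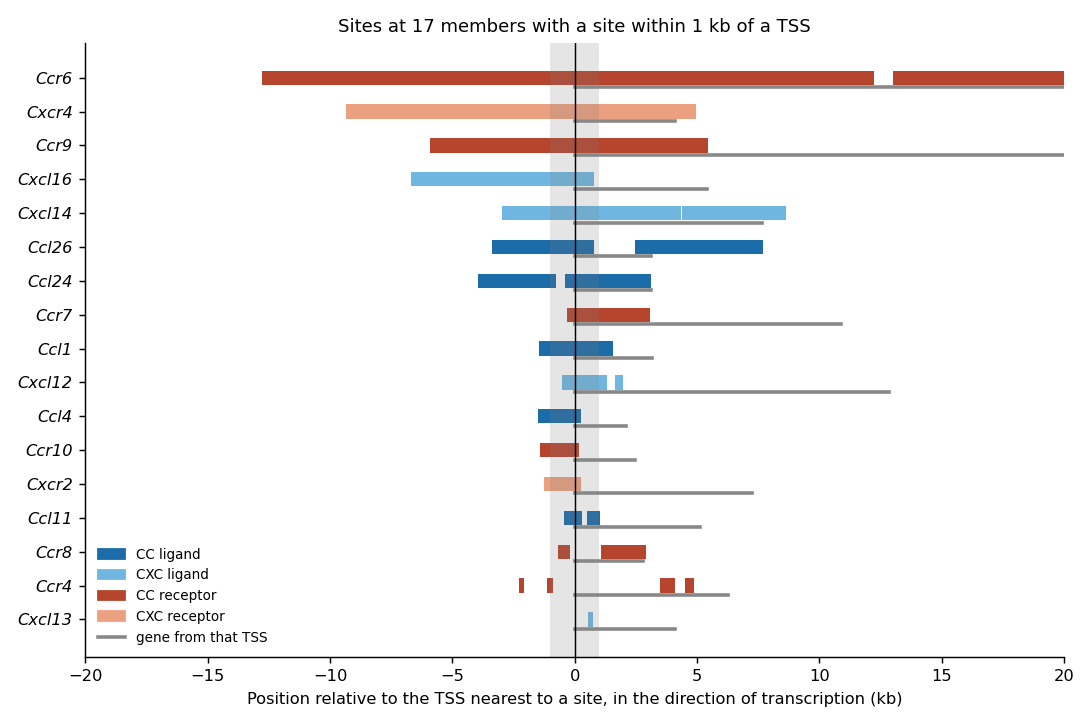
H3K27me3 sites (bars, coloured by class) that touch the gene or its 1 kb window at 17 members with a site within 1 kb of a TSS, in kb from the TSS nearest to a site and cut at 20 kb on either side. Grey lines are the gene from that TSS and the grey band is the 1 kb window; the sites cover 100% of Cxcr4 and 96.2% of Ccr6, whereas at Ccr4 and Cxcl13 the listed site is short and away from the start.

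Among the ligands, Cxcl14 and Ccl24 were covered almost or fully. Cxcl14, a chemokine made constitutively by skin and other epithelia (chr13:56288643-56296551, minus strand), had a cover of 99.6% from sites of 7327 and 4230 bp. Ccl24, also called eotaxin-2, which attracts eosinophils through CCR3, had a cover of 100% from a site of 3524 bp (chr5:135569937-135573049, minus strand). Its neighbour Ccl26, another eotaxin gene, had a site of 4135 bp over its TSS and a second of 5213 bp at its end, with a cover of 45.7%. Ccl11, which encodes eotaxin-1 and lies on another chromosome, had 2 short sites of 755 and 549 bp at its start and a cover of 16.6%.

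Cxcl12 and Cxcl16 had their widest site over the start. Cxcl12, the stromal ligand of CXCR4 (chr6:117168535-117181367, plus strand), had a site of 1854 bp from -536 to 1317 bp relative to the TSS and a second of 328 bp in an intron, and 12.8% of the gene was covered. Cxcl16, which is made as a transmembrane protein, shared a site of 7464 bp with its neighbour Zmynd15 and had a cover of 22.7%. An alternate sequence of the assembly holds a copy of the Cxcl16 promoter with 100% identity, and its part in this site was not tested.

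Ccl4, an inflammatory ligand made by macrophages, had a site of 1748 bp mainly upstream (cover 11.5%). Cxcl13, the ligand of CXCR5, had only a site of 200 bp, the smallest width in the list, in an intron at 556 bp from its TSS (cover 4.86%).

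Ccl1, the ligand of CCR8, combined a promoter site with a broad distant domain. A site of 3029 bp lay over the start of the coding transcript Ccl1-202, of which 50.1% was covered. A long non-coding transcript of the same gene, Ccl1-203, starts far upstream and extends the annotated gene to 129034 bp, of which 47.3% was covered. Within it a run of 10 sites, chr11:82212188-82278422, covered 58.1 of 66.2 kb, beginning 32.4 kb upstream of the coding start. No other annotated gene lies in that run. The cover of Ccl1 therefore rests mainly on bases outside its coding transcript.

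**Figure D3:**
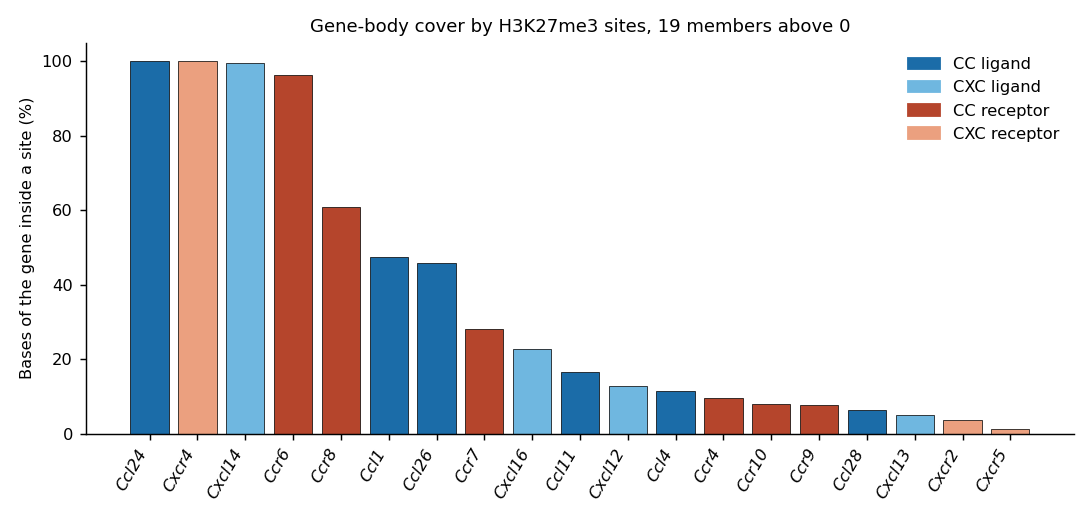
Gene-body cover (y axis, % of bases from annotated start to end inside a site) for 19 members above 0, coloured by class. Cxcr4, Ccl24, Cxcl14 and Ccr6 stand above 90%, Ccr8 follows at 60.9%, and 12 members lie below 30%; Ccl1 and Ccr9 are drawn over long annotated spans that include distant starts.

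Across the group, 20 of 50 members had a cover above 0 (40%, all genes 30.4%), 5 had a cover of at least 50% (10%, all genes 10.2%) and 4 of at least 90% (8%, all genes 4.34%). The median cover was 0% for members and for all genes, and the means were 13.8% and 11.4%. Receptors had a mean of 21.3% and ligands of 10.5%. Beside the 18 members with a promoter site, the 2 with any cover were Cxcr5 and Ccl28, the mucosal ligand of CCR10, which had sites of 1109 and 781 bp inside the gene (cover 6.19%). Sites in the promoter windows of members numbered 20, with a median width of 2442 bp and a range from 200 to 25014 bp, beside a median of 2588 bp for the sites at all genes.

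Most members without a promoter site were far from one. The median distance from a TSS to the nearest site was 11245 bp for members and 13039 bp for all genes, 186 bp for receptors and 21761 bp for ligands. With sites of at least 1000 bp only, the medians were 34304 bp for members and 26509 bp for all genes, so that their order turned. The nearest site was more than 10 kb away for 26 members (52%, all genes 53.7%) and more than 100 kb away for 9 (18%, all genes 16.8%), shares close to those of all genes. Beyond Cxcr5, the nearest members without a site were Cxcl17, a mucosal chemokine, at 2300 bp and Cxcl10, the interferon-induced ligand of CXCR3, at 3358 bp. The farthest were Ccl21b at 433889 bp, Cxcl1 at 247866 bp and Cxcl15 at 241085 bp. Both Cxcl1 and Cxcl15 belong to the cluster of chromosome 5.

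**Figure D4:**
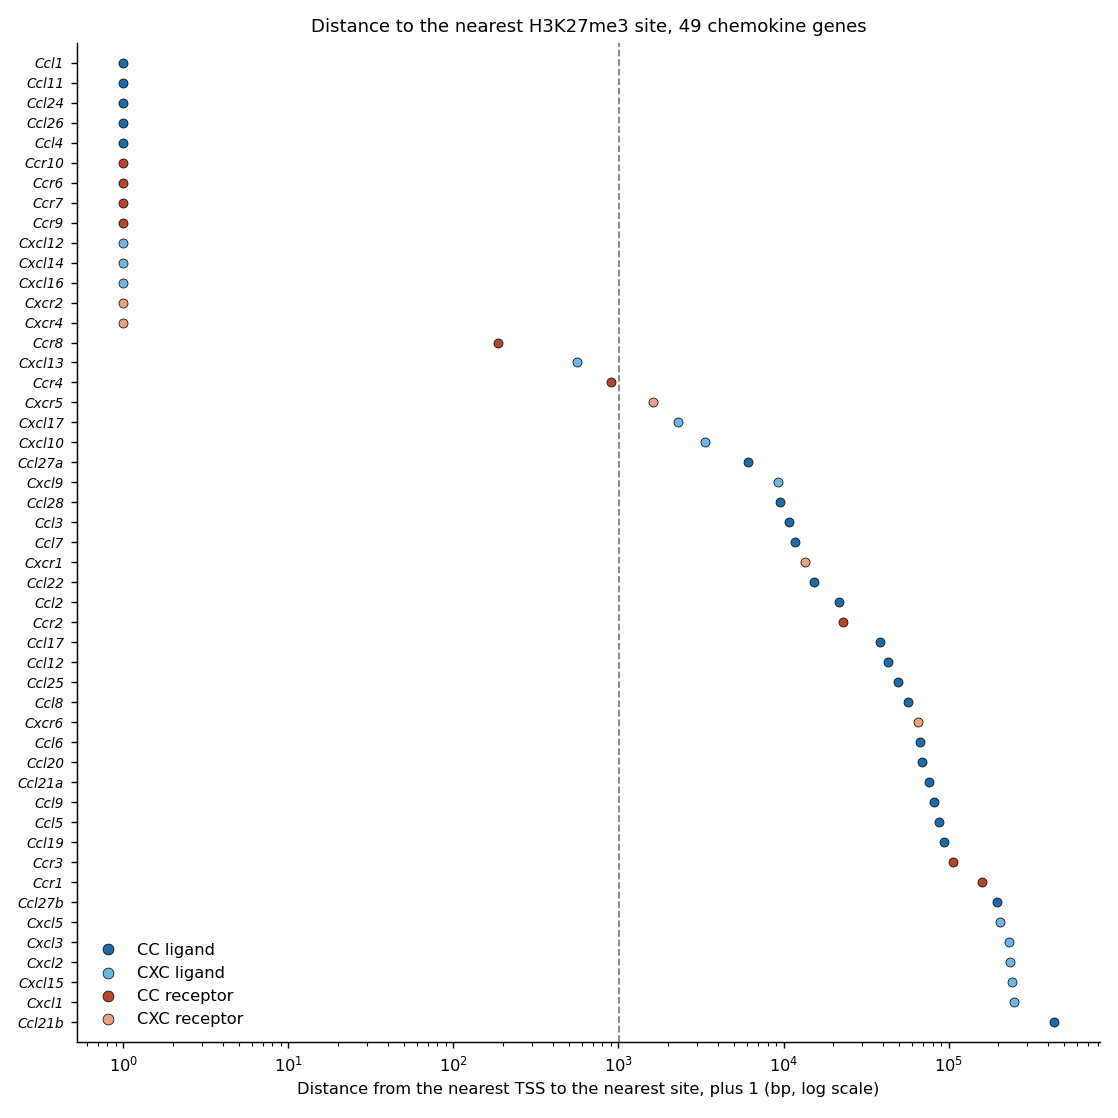
Distance from the nearest TSS to the nearest H3K27me3 site plus 1 (x axis, bp, log scale) for 49 members, coloured by class and sorted. The dashed line marks 1 kb; 14 members shown have a site over a TSS, 3 more lie within 1 kb, and the 5 members of the Cxcl5 to Cxcl2 cluster are all beyond 200 kb.

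Clusters were runs of at least 3 members with less than 500 kb between neighbours. There were 5, with 27 members. Of these 5 were near a site (18.5%, interval 8.18 to 36.7%), against 13 of the 23 members elsewhere (56.5%, interval 36.8 to 74.4%). The share of all genes, 26.9%, lay inside the interval of the clustered members and below that of the others, and the difference was not tested. Near-identical promoter copies were found for 5 clustered members on chromosome 4 and 3 on chromosome 5, none of which had a site. Of the members elsewhere only Cxcl16 has such a copy. The part of these copies in the lower share of clustered members was not tested. Ligands showed 3 of 21 in clusters (interval 4.98 to 34.6%) and 6 of 14 elsewhere (21.4 to 67.4%), both intervals including the 26.9% of all genes. Receptors showed 2 of 6 in clusters (9.68 to 70%), which included it too, and 7 of 9 elsewhere (45.3 to 93.7%), which lay above it. The sites covered 4.02% of the 2029393 bp of the clusters and 6.99% of the autosomes. Without the cluster on chromosome 4, in which every promoter has a near-identical copy, the cover of the clusters was 7.22%, above that of the autosomes. Of the 81552 covered bp, 62391 lay in the cluster from Ccl2 to Ccl1 on chromosome 11, and without that cluster the cover was 1.09%. The order of clusters and autosomes thus depended on single clusters, and the value above the autosomes on the domain at Ccl1.

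The cluster of neutrophil chemokines on chromosome 5 (Cxcl5, Cxcl3, Cxcl15, Cxcl1 and Cxcl2, chr5:90759360-90905938) held no site at all in 146579 bp. The distances of its members ran from 205911 bp for Cxcl5 through 232654 bp for Cxcl3 and 235236 bp for Cxcl2 to those of Cxcl15 and Cxcl1. The 500 kb on either side had covers of 3.63 and 2.01%, also below the autosomes. Of 14 other protein-coding genes in and around the cluster, 2 had a promoter site, namely the growth factor genes Areg and Btc. Cxcl5, Cxcl3 and Cxcl15 have a near-identical copy of their promoter (at least 98% identity over at least 500 bp) on another sequence of the assembly, while Cxcl1 and Cxcl2 have none.

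The CC ligands on chromosome 4 (Ccl27a, Ccl21b, Ccl27b, Ccl19 and Ccl21a, chr4:41769467-42773993), which direct cells to skin and lymph nodes, also had no promoter site. The 8 sites there covered 0.750% and all lay near Ccl27a, at 6081 bp or more, leaving 952115 bp free. The flanks had covers of 28.8 and 16.5%, and 11 of 48 other genes had a site. Ccl27b, Ccl19 and Ccl21a were 194867, 93541 and 76125 bp from a site. All 5 members have near-identical promoter copies elsewhere in the assembly, so reads from them may not be placed uniquely, and 50000 bp of the stretch are a gap. The part of either in the lack of sites was not tested.

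The receptor cluster on chromosome 9 (Ccr9, Cxcr6, Ccr1, Ccr3 and Ccr2 among its members) was marked at the distant start of Ccr9 and along the first part of that gene's long span. No site lay between these sites and the end of Ccr2, a stretch that holds Cxcr6, Ccr1 and Ccr3. The flank on the side of Ccr9 had a cover of 15.2% and the other flank, with 1 site, 0.0426%. None of these members has a near-identical copy. A gap of 50787 bp lies in the cluster.

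The monocyte and eosinophil chemokines on chromosome 11 (Ccl2, Ccl7, Ccl11, Ccl12, Ccl8 and Ccl1, chr11:82035571-82305690) formed the cluster with the highest cover, 23.1% from 13 sites, most of it in the domain upstream of the coding start of Ccl1. Between Ccl11 and Ccl1 a stretch of 119375 bp, with Ccl12 and Ccl8, was free. Ccl2, a monocyte attractant that fibroblasts can secrete, was 21761 bp from a site, Ccl7 11659 bp, Ccl12 42988 bp and Ccl8 56328 bp. The flanks had covers of 23.6 and 17%, with promoter sites at Asic2, 5530401A14Rik and Tmem132e.

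In the second cluster of chromosome 11 (Ccl5, Ccl9, Ccl6, Ccl3 and Ccl4, chr11:83525778-83664683) 2 sites at the Ccl4 end covered 1.65%, and the first 134408 bp were free. Ccl3, the gene beside Ccl4, was 10831 bp from a site, and Ccl5, Ccl9 and Ccl6 were 87757, 81550 and 67099 bp away. Around it 6 of 25 other genes had a promoter site, Slfn14, Rasl10b, Gas2l2, 1700020L24Rik, Wfdc18 and Wfdc21.

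**Figure D5:**
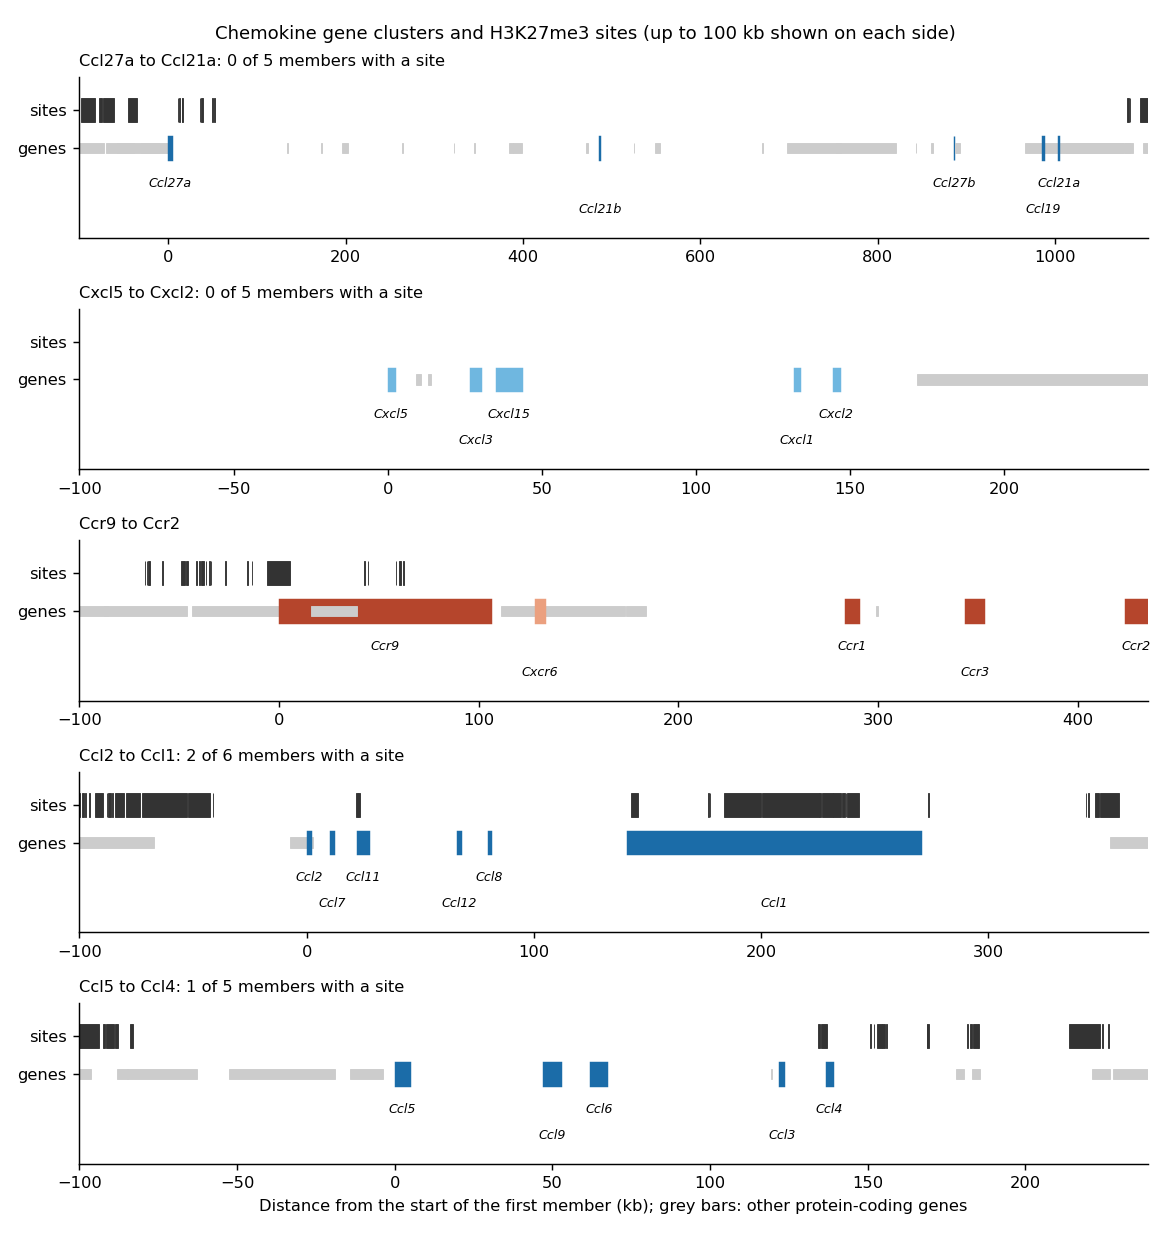
Maps of the 5 chemokine gene clusters with up to 100 kb on each side (that of chromosome 9 is drawn to the end of Ccr2), in kb from the start of the first member (x axis). Black bars are H3K27me3 sites, coloured bars are members (blue ligands, red receptors) and grey bars other protein-coding genes; the Cxcl5 to Cxcl2 cluster holds no site, and the broad run of sites in the Ccl2 to Ccl1 cluster lies inside the long annotated span of Ccl1.

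Other ligands outside these clusters also lacked a promoter site. Ccl20, the ligand of CCR6, was 68923 bp from a site, and Ccl25, the ligand of CCR9, 49261 bp. Ccl22 and Ccl17, the ligands of CCR4, lie on either side of Cx3cl1 on chromosome 8 and were 15206 and 38526 bp away. The site nearest to Ccl17, of 2410 bp, was the one at the promoter of Cx3cl1. Cxcl9, a ligand of CXCR3 beside Cxcl10, was 9283 bp away.

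The scores of selected ligand and receptor pairs are given as a description, without a share, since the pairs were chosen after the values were seen. They do not hold every ligand of each receptor, and ligands left out may score otherwise. A site lay near a TSS of both Cxcl12 and Cxcr4 and of both Ccl1 and Ccr8. The receptor alone had one for Ccl20 and Ccr6, for Cxcl1, Cxcl2 and Cxcr2, for Ccl19, Ccl21a and Ccr7, for Ccl17, Ccl22 and Ccr4, for Ccl25 and Ccr9, and for Ccl27a, Ccl28 and Ccr10. The ligand alone had one for Cxcl16 and Cxcr6, for Cxcl13 and Cxcr5, and for Ccl11, Ccl24 and Ccr3. Ccl2 and Ccr2 both lacked one.

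CpG islands were uncommon at chemokine genes. An island came within 1 kb of a TSS at 7 of 50 members, against 59.3% of all genes. A site was found at 5 of these 7, Cxcr4, Cxcl12, Cxcl14, Cxcl16 and Ccr9, and not at Ccl25 or Ccl27a. Without an island 13 of 43 members had a site (30.2%). For all genes the shares were 26.4% with and 27.7% without an island. Ccr6, Ccl24 and Ccr7 were among the 13 marked members that had no island.

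Of the 50 members, 35 were matched to 39 RefSeq promoters. Ccl11, Ccl2, Ccl21b, Ccl24, Ccl26, Ccl4, Ccl5, Ccl7, Ccr10, Ccr7, Cxcl16, Cxcl17, Cxcl5 and Cxcr5 were among those not matched. The median number of CpGs in 300 bases was 4 for member promoters and 7 for all 31387 promoters, and the median GC content was 51.7 and 53%. The 10 member promoters with a site within 1 kb had a median of 5 CpGs and the 29 without had 4. These 10 came from 9 of the 18 members with a site, so the medians leave out many marked members. Of the marked members with an island, Cxcl16 was not matched. Ccr9 was matched only at a start with 4 CpGs and no site within 1 kb. TATAAA, the core of the TATA box, searched on both strands, was in 9 member promoters (23.1%) and in 13.6% of all promoters.

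The NF-kB consensus, searched on both strands, was present in 9 of the 39 member promoters (23.1%) and in 4.58% of all promoters. It was found in 8 of the 29 promoters without a site and in 1 of the 10 with a site, that of an internal start of Ccr6. The neutrophil chemokines Cxcl1, Cxcl2 and Cxcl3 held the same match, GGGAATTTCC, whose first base was at -71, -97 and -73 from the RefSeq start, counted without a zero, and each overlapped a second match on the other strand. Cxcl10 held GGGAAATTCC at -159 and GGGACTTCCC at -103. The core of the interferon-stimulated response element, GAAA, any 2 bases and GAAA on either strand, was in 3 member promoters (7.69%), those of Cxcl10, Ccl19 and Cxcl14, and in 3.46% of all. A match of letters is no evidence of binding.

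Genes of the chemokine system that the symbol rule does not take were scored in the same way. Of 42 listed genes 12 were near a site by this measure (28.6%), a share near that of all genes. Of the 5 atypical receptors, which bind chemokines without G protein signalling, 3 had one. Ackr1, the Duffy receptor of erythroid and endothelial cells, was covered to 100%, Ackr2 to 74.7% and Ccrl2 to 55.8%, whereas Ackr3, another receptor of CXCL12, and Ackr4 were 2492 and 5468 bp from a site. The fractalkine ligand Cx3cl1 and its receptor Cx3cr1 had a site, and Xcl1, Pf4, Ppbp, Xcr1 and Ccr1l1 did not.

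Among 20 signalling genes downstream of the receptors, 7 had a site: Gnai1, Grk3, Rgs16, Plcb2, Dock2, Elmo1 and Rac2. This was 35%, against 26.9% of all genes. The highest cover was found at Plcb2, a phospholipase (98.4%), and at Rac2, a small GTPase of blood cells (91.3%). None of 10 inducers of chemokine transcription, such as Nfkb1, Rela and Irf1, had one.

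The labelled cell type was checked by the same score. A promoter site was listed at 1 of 12 fibroblast markers (Pdgfra), at 7 of 10 leukocyte markers, at 3 of 6 epithelial and at 3 of 6 endothelial markers, against 26.9% of all genes. The collagen genes Col1a1, Col1a2 and Col3a1, which fibroblasts transcribe strongly, had a cover of 0%, as did Vim, a gene of mesenchymal cells in general. These positions say where sites were listed and not how strongly a gene was transcribed.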

How the data were processed

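H3K27me3 ChIP-seq of iMEF cells was analysed from the list of sites that the authors deposited. Its values are chromosome positions (start and end) and carry no count, signal or score. According to the methods of the study, reads were trimmed, aligned with BWA to mm10 and filtered with SAMtools, and replicates were merged with Picard. Broad peaks were called with MACS and libraries were normalized to the lowest coverage. The submitters' processing notes name MACS2 for the peak caller and also name deepTools and DESeq2. Tool versions, the cutoffs of peak calling and the rule by which peaks of the samples were joined are not given in the sources used here.

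Starts were read as counted from 0, since the smallest width was then a round 200 bp, and are printed counted from 1. Sites were set against GENCODE M21 (GRCm38) with Python 3.11.15 and numpy 2.4.6. A site was near a gene if 1 bp of it lay within 1 kb of a TSS of any transcript. CpG islands were maximal-scoring segments of repeat-masked sequence (17 for a CpG, -1 for other bases) of at least 200 bp, with at least 50% GC and an observed/expected ratio of at least 0.6. Near-identical promoter copies were found with BLAST 2.17.0 (at least 98% identity over 500 bp), and regions repeated in assembly patches with minimap2 2.31 (at least 98% over 10 kb). The functions were tested on simulated data. Members with a site or any cover, the 3 nearest and 3 farthest without a site, all cluster members, and listed genes of the wider system with a site were named by rule. Single items that are withheld are counted but not reported here. The members and lists were chosen with earlier results of these data known. No test was made, because the planned comparison of untreated and dTAG-treated cells needs values per library. Columns of per-sample values left unused numbered 0.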

Additional observations from a re-analysis of the deposited data

How the results depend on the processing

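Across 14 alternatives the number of members with a site ranged from 14 (sites of at least 1000 bp) to 21 (a window of 5 kb), that of ligands from 7 to 11 and that of receptors from 7 to 10, all within 1.5 times the reported counts, and the receptor share was above the ligand share in 14 of 14. The least difference was 46.7 against 22.9%, with sites of at least 500 bp and with the first TSS only. The ligand share was below that of all genes in the report and with a window of 5 kb (31.4 against 38.3%), but above it with principal TSSs only (25.7 against 24.4%). Without the members that have a near-identical copy the ligand share was 30.8%, and the share of all genes was not computed for that setting. Cxcl13, Ccr4 and Ccr8 lost their site when sites under 500 bp were dropped, and Ccl11 also under 1000 bp. The cover of the clusters moved from 4.02% to 6.47% with 250 kb between neighbours, which splits the chromosome 4 run, to 6.56% with 2 Mb, to 7.22% without that cluster, and to 1.09% without the cluster from Ccl2 to Ccl1. The median distance of members moved from 11245 bp to 17588 bp with sites of at least 500 bp and to 34304 bp with at least 1000 bp, where all genes had 17920 and 26509 bp. No member lay in a patch-repeated region. Principal TSSs and the settings without near-identical copies or without a cluster were chosen after seeing the data. No paired analysis was possible because the list pools all libraries and gives no value for a replicate, and leaving out single replicates was not possible for the same reason. The list gives no depth per site, so whether coverage limited short or missing sites was not tested.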

Other observations

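A pair of further chemokine genes fell outside the rule. Cxcl11, a CXCR3 ligand beside Cxcl10 that is annotated as a polymorphic pseudogene in the reference annotation (chr5:92359544-92365485), had a site of 240 bp over a TSS and a cover of 21.2%, whereas its neighbours Cxcl9 and Cxcl10 had a cover of 0%. Cxcr3, the receptor of these ligands on the X chromosome, had a site of 2196 bp at 486 bp from its TSS and a cover of 0%. The other 7 of 9 genes left out were copies of Ccl27, Ccl21 and Ccl19 genes on unplaced scaffolds, which were not analysed here.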
